A study of Saccharomyces cerevisiae with 6 samples.

Results

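The AU-rich positions of the 35S gene are those at which at least 8 of the last 10 nucleotides added by RNA polymerase I (Pol I), the position itself included, are A or U. Of the 6858 positions, 765 (11.2%) met this rule, which uses sequence and no measured value. A or U filled 8 of the 10 places at 559 of them, 9 at 174, and all 10 at 32. Pol I is the yeast polymerase that makes the 35S rRNA precursor. NET-Seq purifies nascent RNA with the engaged polymerase and sequences its 3′ end, so that each read is assigned to 1 nucleotide. The values do not separate 3′ ends of growing RNA from ends left by a cut, and the study describes mature rRNA as contamination of its samples, so values within the 18S, 5.8S, and 25S genes also hold mature rRNA. Inside the elongating polymerase the newest nucleotides are paired with template DNA in a short hybrid. A and U pair more weakly than G and C, and a T-rich element ahead of a bound factor is known from yeast as part of the Pol I terminator.

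The libraries came from 3 cultures of a WT strain and 3 of *rpa190-F1205H*, a phenylalanine-to-histidine change in the trigger loop, the mobile element of the catalytic center, in the largest Pol I subunit. The mutant has its chromosomal *RPA190* replaced by *HIS3* (*rpa190Δ::HIS3*) and carries the mutated gene on the plasmid pRS315-rpa190-F1205H, whereas the WT is described as its parent strain. Both carry a C-terminal 3×HA tag on Rpa135, the second-largest subunit, through which the polymerase was purified, and were grown at 30 °C to an OD600 of 0.3. The targeted gene lies outside the table, so the labels could not be checked against it.

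Values are RPM: all reads that a library has at positions 1 to 6739 are set to 1000000. They are shares, so a gain at some positions and a loss at all others cannot be told apart. The AU-rich positions held 124988 to 189282 reads across WT libraries and 179816 to 208928 across mutant libraries. In the spacers the median AU-rich position had 10.5 to 16 reads in WT and 45 to 49.5 in mutant cells, and 104 to 140 of the 314 positions in WT and 58 to 60 in mutant cells had under 10 reads, so single WT values in the spacers are imprecise. Spacer reads were 3.81 to 4.45% of 35S reads in WT and 12.1 to 12.3% in mutant cells.

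The AU-rich positions were unevenly spread. They made up 89 of the 211 positions of ETS2 (42.2%), 110 of 361 in ITS1 (30.5%), 31 of 232 in ITS2 (13.4%), and 84 of 700 in ETS1 (12%). In the genes they made up 213 of 1800 positions of 18S (11.8%), 13 of 158 of 5.8S (8.23%), and 225 of 3396 of 25S (6.63%). The spacers, which are transcribed and then removed, thus held 314 of 1504 (20.9%) and the genes 451 of 5354 (8.42%). They formed 182 unbroken stretches of up to 30 positions, and neighbors in a stretch share most of their window. Within 10 nucleotides of a spacer end, 49 of 80 positions (61.25%) were AU-rich. The last nucleotide was U at 346 positions, A at 298, G at 70, and C at 51.

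The sequences below carry the largest changes of the AU-rich positions and, in the spacers, the highest values of each region. They are the RNA sense of chromosome XII, minus strand, build R64, where the annotated gene is RDN37-2 (460712 to 467569). For single positions the 10 capitals are the window that defines the position, its last capital being the position itself. The ETS1 windows end at chromosome coordinates 467260, 467253, 466995, 466960, and 466919.
position 310: gauuacuagcUAAUAGCAAUcuauuucaaa
position 317: agcuaauagcAAUCUAUUUCaaagaauuca
position 575: gaccugaaaaAGCAAUUUUUcuggaauuuc
position 610: uuuccaaacuCAAUAAGUAUcuucuagcaa
position 651: ugggaaaaaaAAAAAGAGAUuucgguuucu
In ITS1 and ITS2, the windows end at 464872, 464860, 464495, and 464466.
position 2698: uguuauaggaCAAUUAAAACcguuucaaua
position 2710: auuaaaaccgUUUCAAUACAacacacugug
position 3075: cuuuggaguuAACUUGAAAUugcuggccuu
position 3104: uuucauuggaUGUUUUUUUUccaaagagag
In ETS2 the windows end at 460908 and 460831. The first lies directly before position 6663, the first that is labeled as an Rnt1 cleaved residue (the last is 6697). The second is the nucleotide labeled T1, the terminator.
position 6662: uuuguuuuuuAUUUCUUUCUaaguggguac
position 6739: ucuauaaauuUUAUUUGUCUuaagaauucu
In the genes, windows end at 466389 and 465896 in 18S, and at 464317, 462172, and 461594 in 25S.
position 1181: guagugacaaUAAAUAACGAuacagggccc
position 1674: acguuuucauUAAUCAAGAAcgaaaguuag
position 3253: gcgaacaaugUUCUUAAAGUuugaccucaa
position 5398: cugacugucuAAUUAAAACAuagcauugcg
position 5976: gcccccuugaUUUUGAUUUUcagugugaau
Here the capitals mark the positions of the longest unbroken AU-rich stretches of the spacers and of the genes, and the first 10 positions of 5.8S. The windows of these 10 reach back into ITS1, except that of the last.
stretch 2796 to 2825: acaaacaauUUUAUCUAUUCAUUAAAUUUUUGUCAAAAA
stretch 2502 to 2525: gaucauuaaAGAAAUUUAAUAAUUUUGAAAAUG
stretch 6776 to 6798: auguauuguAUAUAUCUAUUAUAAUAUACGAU
stretch 909 to 929: agauguauuUAUUAGAUAAAAAAUCAAUGU
positions 2862 to 2871: aaauauuaaAAACUUUCAA

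In both strains the AU-rich positions carried fewer reads than the other positions of the same region, in every region but ETS2. AU-rich positions of ETS1 had 16.6, 17.6, and 17.4 RPM per position across WT libraries and 49.6, 45.6, and 46.2 across mutant libraries, against 37.1 ± 2.98 and 124 ± 1.98 (SD, n = 3) at the other ETS1 positions. ITS1 had 10.04 ± 0.64 RPM in WT and 25.6 ± 1.35 in mutant cells at AU-rich positions, against 19.6 ± 2.05 and 67.0 ± 1.18 at the others. ITS2 had 9.10 ± 0.68 and 32.2 ± 1.33 against 37.8 ± 3.85 and 82.6 ± 1.11. The mutant libraries lay above the WT libraries in all 3 spacers, for AU-rich and other positions alike.

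Of the genes, 5.8S had 25.7 ± 0.80 RPM at its 13 AU-rich positions in WT and 48.1 ± 1.79 in mutant cells, against 222 ± 5.21 and 155 ± 5.30 at the others. AU-rich positions of 18S had 130 ± 5.63 RPM in WT and 116 ± 4.31 in mutant cells, against 169 ± 2.93 and 172 ± 1.07 at the others. Those of 25S had 131 ± 5.35 and 108 ± 4.64, against 189 ± 1.73 and 168 ± 0.49. In 18S and 25S the mutant libraries were below the WT libraries at the AU-rich positions.

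In means pooled over regions, which differ in level, RPM was lower with more A or U in the window. This held from 3 to 9 of 10 and not only across the threshold. At spacer positions with 3 of 10, the mean was 50.8 ± 6.21 RPM in WT and 168 ± 4.97 in mutant cells. It was 36.1 ± 3.13 and 121 ± 0.85 at 5 of 10, and 27.5 ± 1.76 and 76.7 ± 0.64 at 6 of 10. Just outside the rule, at 7 of 10 (290 positions), it was 19.8 ± 1.24 in WT and 59.9 ± 1.42 in mutant cells. Just inside, at 8 of 10 (206 positions), it was 19.3 ± 1.83 and 30.9 ± 1.56. Relative to the means of their own regions, the WT log2 ratio was -0.48 ± 0.03 at 7 of 10 and -0.34 ± 0.03 at 8 of 10, so not lower across the threshold. In mutant cells this ratio was -0.41 ± 0.03 and -1.17 ± 0.07. Without the 2 WT peaks at positions 6661 and 6662 the remaining 204 positions with 8 of 10 had 11.9 ± 0.58 RPM in WT and 30.4 ± 1.55 in mutant cells. The 28 spacer positions with 10 of 10 had 11.0 ± 0.78 RPM in WT and 17.6 ± 1.22 in mutant cells. Of these 28, 19 were called higher (67.9%) and 1 lower (3.57%), where over all spacer positions 82.5% rose and 4.42% fell. Below 3 of 10 the pooled spacer means were lower again in both strains. The 20 positions with 2 of 10 had 29.2 ± 2.84 RPM in WT and 108 ± 5.22 in mutant cells, and the 11 with 1 of 10 had 14.8 ± 1.42 and 116 ± 4.35. Relative to the means of their own regions, the mutant log2 ratio was not lower: 0.92 ± 0.04 at 3 of 10, 0.93 ± 0.08 at 2, and 1.46 ± 0.05 at 1. That of WT was 0.82 ± 0.08, 0.56 ± 0.09, and -0.12 ± 0.12. In the genes, 1 of 10 (26 positions) had the highest means of the counts from 1 to 9, with 255 ± 13.7 RPM in WT and 252 ± 17.3 in mutant cells. Across positions of 1 library, which are not independent, Spearman's rho between the count of A or U and RPM was negative in all 7 regions and 6 libraries, from -0.26 to -0.24 in WT and from -0.30 to -0.28 in mutant cells in ETS1, and from -0.31 to -0.27 and from -0.43 to -0.41 in ITS1. It was weak in WT in the 2 long genes, from -0.11 to -0.05 in 18S and from -0.09 to -0.05 in 25S. In mutant cells it was from -0.25 to -0.22 and from -0.19 to -0.14 there.

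**Figure D1:**
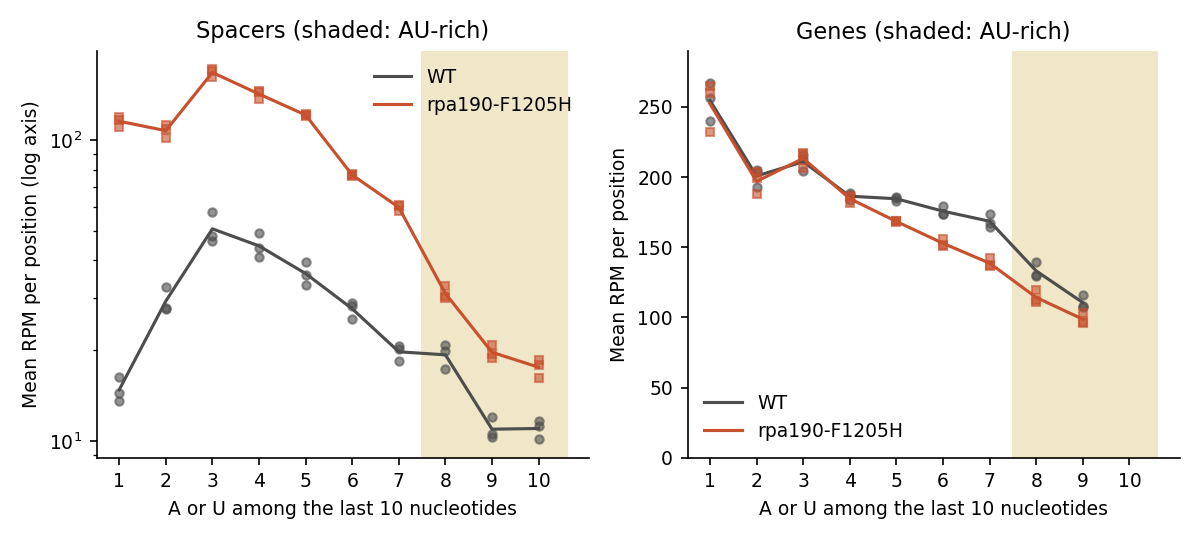
Mean RPM per position (log axis for the spacers, linear for the genes) against the number of A or U among the last 10 nucleotides, with 1 point per library and a line through the strain mean. Spacer means fell from 168 RPM at 3 of 10 to 17.6 at 10 of 10 in *rpa190-F1205H*. The 4 gene positions with 10 of 10 are not drawn.

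To set the strains side by side, the log2 ratio of AU-rich to other positions was taken in each library, each AU-rich position being set against the other positions of its own region. In the spacers it was -0.45 ± 0.04 in WT and -1.45 ± 0.06 in mutant cells (SD, n = 3), a difference of -0.996 with no overlap between strains. The two-sided exact permutation test gave p = 0.1, the smallest that 3 libraries against 3 allow, so no such ratio could pass 0.05. With medians over positions in place of means the spacer ratios were -0.96 ± 0.16 and -1.15 ± 0.08, a difference of -0.19 (exact p = 0.3). In the genes the ratio was -0.51 in WT and -0.62 in mutant cells, a difference of -0.11 (exact p = 0.1).

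The spacer difference was carried largely by ETS2. Without ETS2 the ratios were -1.18 ± 0.09 in WT and -1.39 ± 0.07 in mutant cells, a difference of -0.21. In ETS2 the ratio was 1.88 ± 0.05 in WT, the only region where AU-rich positions held more reads than the others, and -1.98 ± 0.06 in mutant cells. By medians the ETS2 ratios were -1.41 ± 0.36 and -1.32 ± 0.16, so the excess in WT lay at few positions. The difference between strains was -0.29 in ETS1, -0.43 in ITS1, -0.17 in 18S, and -0.11 in 25S. It was 0.69 in ITS2 and 1.43 in 5.8S, where the ratio of the mutant was the higher. In ITS2 its sign turned to -0.27 with medians. Adjusted over the 7 regions, the exact p was 0.117 in 6 of them and 0.2 in 25S.

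**Figure D2:**
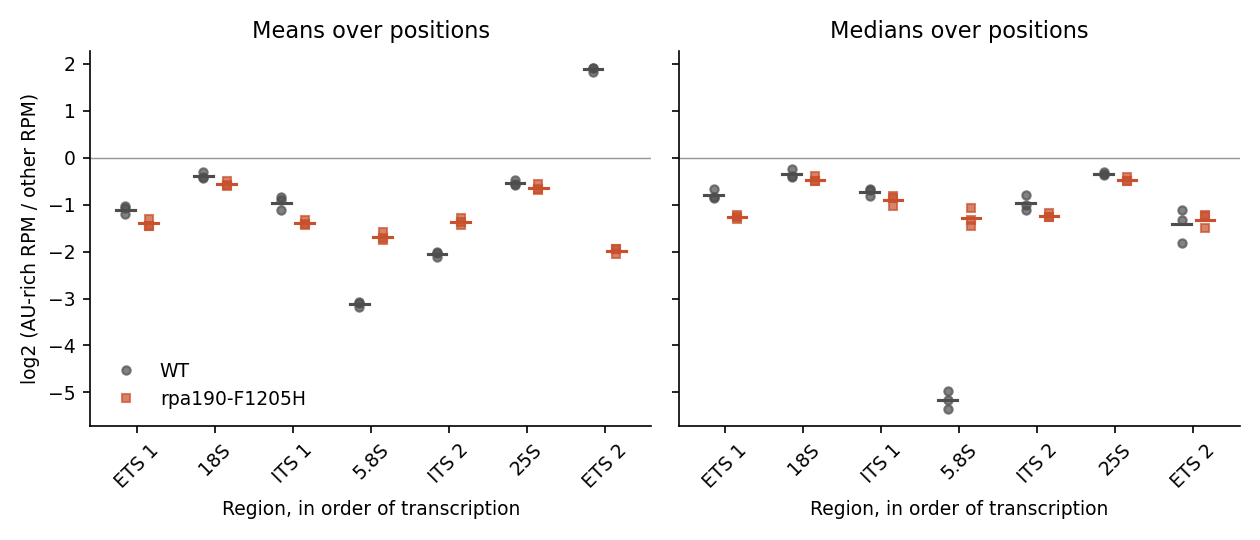
log2 ratio of RPM at AU-rich to RPM at other positions in each library (points) with the strain mean (bars), from means over positions and from medians over positions. With means, ETS2 is at 1.88 in WT and -1.98 in *rpa190-F1205H*. With medians the strains overlap there.

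Over the whole 35S gene, 40.6% of positions rose in mutant cells and 33.9% fell. Position by position, 217 of 311 tested AU-rich spacer positions (69.8%) rose in mutant cells and 18 (5.79%) fell (limma on log2(RPM + 1), Benjamini-Hochberg adjusted p below 0.05 over 6843 positions), where over all spacer positions 82.5% rose and 4.42% fell. The other spacer positions rose in 85.8% of cases and fell in 4.06%. The median log2 fold change, mutant over WT, was 1.11 at AU-rich and 1.72 at other spacer positions. With every library scaled to the same spacer total, which moved the median log2 fold change of all 35S positions from 0.05 to -1.48, 80 AU-rich spacer positions were higher and 114 lower (25.7% and 36.7%), against 47.3% and 25.9% of the others. In the genes 112 of 451 AU-rich positions rose (24.8%) and 212 fell (47.0%), where over all gene positions 29% rose and 42.1% fell. Scaled to the same spacer total, 13 AU-rich gene positions were higher and 419 lower (2.88% and 92.9%, against 2.86% and 92.6% of the other gene positions). Scaled to the same median position, 87 were higher and 272 lower (19.3% and 60.3%, against 23.5% and 53.8%).

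By region, the AU-rich positions of ETS1 rose at 70 of 84 (83.3%, against 87.5% of all ETS1 positions) and fell at 1, against 3.02%. Those of ITS1 rose at 91 of 110 (82.7%, against 84.4%) and fell at 4, against 3.89%. In ITS2, 30 of 31 rose (96.8%, against 90%) and none fell, against 4.33%. In ETS2, 26 of 86 tested rose (30.2%) and 13 fell (15.1%), against 53.6% and 10.1% of all ETS2 positions. In 18S, 52 of 213 rose (24.4%) and 94 fell (44.1%), against 33.8% and 35.3%. In 25S, 50 of 225 rose (22.2%) and 117 fell (52%), against 26.8% and 45.1%. In 5.8S, 10 of 13 rose (76.9%) and 1 fell, against 20.5% and 55.8%.

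**Figure D3:**
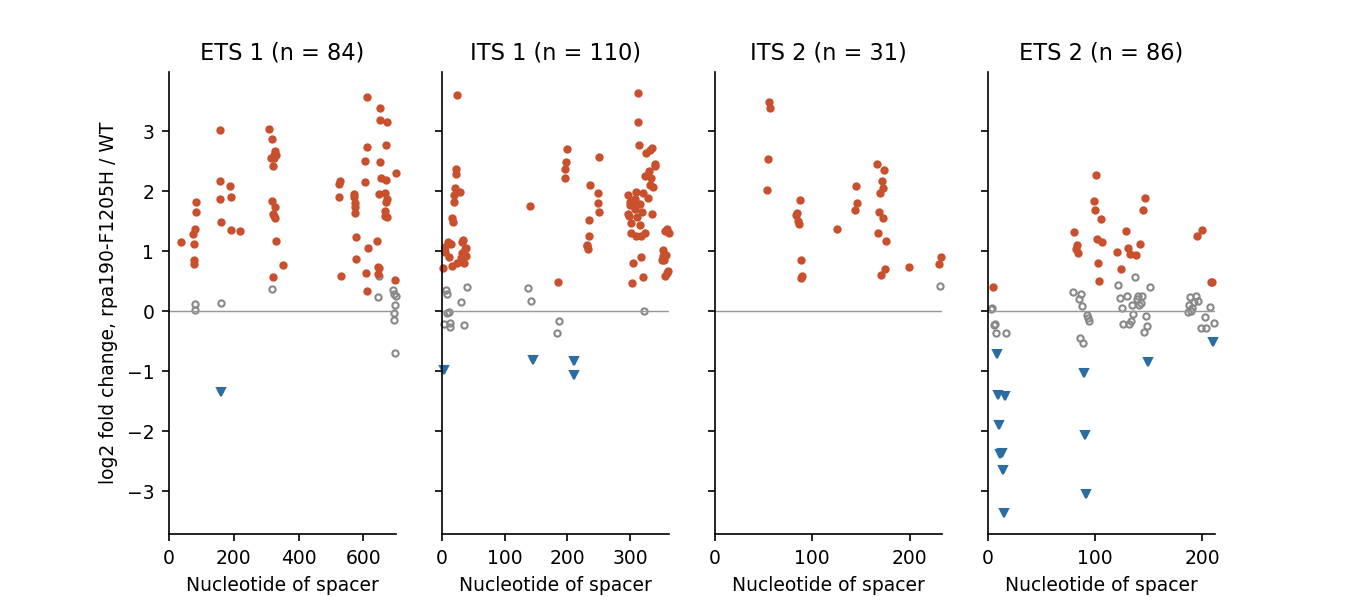
log2 fold change (*rpa190-F1205H* over WT, limma on log2(RPM + 1)) of each tested AU-rich spacer position by its nucleotide within the region. Filled circles rose and triangles fell at an adjusted p below 0.05, and open circles did not pass. Of the 18 falls, 13 lie in ETS2, 7 of them in its first 15 nucleotides.

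In ETS2, the mean at AU-rich positions went from 26.2 ± 3.45 RPM in WT to 7.60 ± 0.55 in mutant cells, whereas that at the other positions went from 7.11 ± 0.72 to 29.9 ± 1.38, so that both classes entered the strain difference of the ratio. Rnt1 is the yeast RNase III that cuts the precursor in ETS2, and T1 is the main Pol I terminator, upstream of a binding site for Reb1 or Nsi1 (positions 6757 to 6767). Position 6662 (chromosome XII, 460908) is 15 nucleotides after the end of 25S and had 812, 1162, and 1104 RPM in WT and 103, 98.9, and 91.2 RPM in mutant cells. It was the highest AU-rich position of the spacers in WT, and the strains were far apart. The fall came to -3.36 on the log2 scale, with a standard error of 0.14 and a limma adjusted p of 2.06e-07. Position 6661 had 435, 577, and 561 RPM in WT and 83.6, 78.9, and 84.6 in mutant cells, and its log2 fold change was -2.65 (adjusted p = 3.11e-07, limma). Position 6660 had 74.2 to 98.8 RPM in WT and 13.8 to 20.8 in mutant cells, with a log2 fold change of -2.36. These neighbors share their pyrimidine-rich window, which holds 1 A or G in 10.

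Position 6739, T1 itself (460831), had 172, 189, and 152 RPM in WT and 21.7, 24.7, and 14.4 in mutant cells. No mutant library came near the WT libraries, which put the log2 fold change at -3.04, with a standard error of 0.19 (limma adjusted p = 1.48e-06). Its window, like that of position 6662, is rich in U and holds 2 A or G.

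Positions 6661 and 6662 together held 29.9% ± 2.93 of all reads at AU-rich spacer positions in WT and 2.13% ± 0.04 in mutant cells. AU-rich positions held 72.9% ± 0.65 of ETS2 reads in WT and 15.6% ± 0.52 in mutant cells. Without the pair, the ETS2 ratio of AU-rich to other was 0.35 ± 0.08 in WT and -2.39 ± 0.08 in mutant cells, a difference of -2.74, and the spacer ratio was -0.96 ± 0.08 and -1.48 ± 0.06, a difference of -0.51.

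ETS2 can be read in 3 segments. Before the Rnt1 residues (positions 6648 to 6662), 14 of the 15 positions were AU-rich and had 143 ± 21.8 RPM in WT and 32.9 ± 1.07 in mutant cells. Of the 13 tested, 1 rose and 7 fell, where over all ETS2 positions 53.6% rose and 10.1% fell. The mean rested largely on positions 6661 and 6662, with 525 and 1026 RPM in WT. The 1 other position held 0 RPM in every library, so the classes cannot be compared in this segment. From the Rnt1 residues to T1 (6663 to 6739), the mean was lower in mutant cells at AU-rich positions and higher at the others. The 15 AU-rich positions there had 19.0, 20.3, and 17.0 RPM in WT and 6.64, 6.53, and 5.35 in mutant cells, whereas the 62 others had 10.9, 12.9, and 12.8 in WT and 55.8, 51.4, and 52.8 in mutant cells. Of the AU-rich positions 4 were called higher and 4 lower, and of the others 41 and 5. The AU-rich mean rested on T1 and the nucleotide before it (6738, with 48.3 ± 4.60 RPM in WT and 10.8 ± 1.95 in mutant cells), without which the remaining 13 had 4.79 ± 0.13 and 4.74 ± 0.51 RPM. Past T1 (6740 to 6858), levels were low in both strains, 0.97 ± 0.16 RPM in WT and 2.04 ± 0.43 in mutant cells at the 60 AU-rich positions and 1.88 ± 0.32 and 5.88 ± 0.66 at the 59 others. Since AU-rich and other positions are unequally divided over these segments, the ratio for the whole of ETS2 also holds differences between segments.

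**Figure D4:**
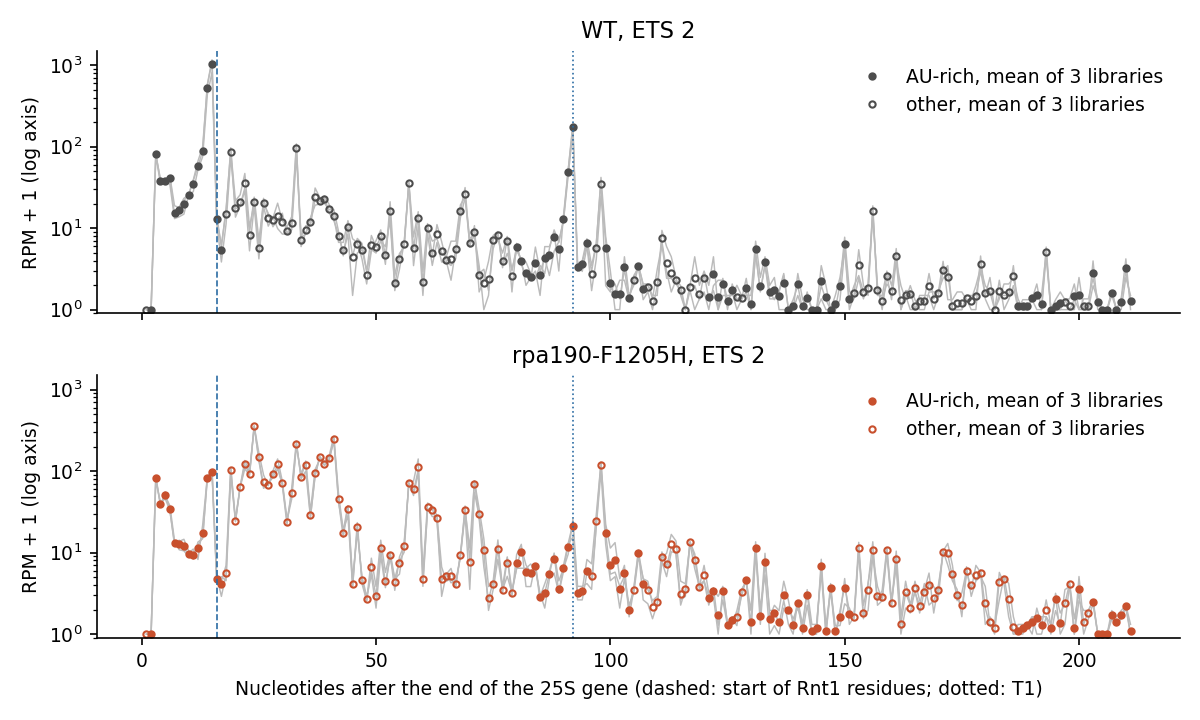
RPM + 1 (log axis) along ETS2 for WT and *rpa190-F1205H*, by nucleotides after the end of 25S. Gray lines are single libraries, filled circles the mean of 3 libraries at AU-rich positions and open circles that at other positions. The 2 AU-rich peaks of WT, at 15 nucleotides (1026 RPM) and at T1 (171 RPM), are at 97.7 and 20.3 RPM in mutant cells.

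In the other spacers, the largest changes at AU-rich positions were rises. Where the mean over all libraries reached 50 RPM and the strains did not overlap, 25 AU-rich spacer positions were called higher and 5 lower (83.3% higher), beside 403 and 25 of the other spacer positions (94.2% higher). The highest of ITS2 in mutant cells was position 3075 (464495), with 9.94, 14.3, and 10.4 RPM in WT and 149, 131, and 137 in mutant cells. Its log2 fold change of 3.50 (standard error 0.14, adjusted p = 1.53e-07, limma) was the largest of these rises. Without it, the strain difference of the ITS2 ratio was 0.53 in place of 0.69. Position 651 of ETS1 (466919), after a run of A interrupted by G, had 14.2, 15.8, and 12.6 RPM in WT and 150, 131, and 129 in mutant cells, a log2 fold change of 3.18 (adjusted p = 9.66e-08, limma). Its window holds 9 A or G, the most among the positions named.

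Positions 310 and 317 of ETS1 share part of a window and both rose. Position 310 had 11.0 to 14.9 RPM in WT and 111 to 120 in mutant cells (log2 fold change 3.04), and position 317 had 13.3 to 18.7 and 113 to 130 (2.87). Position 575, the highest AU-rich position of ETS1 in mutant cells, had 54.7, 68.0, and 71.3 RPM in WT and 219, 192, and 196 in mutant cells (log2 fold change 1.64, adjusted p = 4.79e-06, limma). Scaled to the same spacer total, it was no longer called (0.090, adjusted p = 0.491, limma). The highest in WT was position 610, with 125, 160, and 163 RPM in WT and 195, 197, and 170 in mutant cells. Its strains were adjacent, and its log2 fold change of 0.34 (limma adjusted p = 0.0373) was no longer called without WT replicate 1 (0.21, adjusted p = 0.109) or mutant replicate 1 (0.31, 0.101) or 2 (0.30, 0.114), nor with libraries scaled to the same median position (0.16, 0.277). Scaled to the same spacer total, position 610 was lower in mutant cells (-1.22, adjusted p = 3.19e-06, limma).

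In ITS1, neighboring positions went opposite ways. Position 2698 (464872), the highest AU-rich one of ITS1 in mutant cells, had 33.4, 23.2, and 32.7 RPM in WT and 152, 154, and 208 in mutant cells (log2 fold change 2.49). Position 2699 had 11.7 to 14.3 RPM and 85.6 to 92.7 (2.71). Position 2710 (464860), the highest in WT, had 104, 92.7, and 93.0 RPM in WT and 58.2, 48.5, and 55.1 in mutant cells, a log2 fold change of -0.83 (adjusted p = 1.14e-04, limma) and the only one of the 5 falls outside ETS2. In ITS2, position 3104, at the end of a run of 8 U, was the highest AU-rich position in WT with 23.4, 33.5, and 28.5 RPM, and had 84.3, 91.3, and 72.2 in mutant cells (log2 fold change 1.51).

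The longest AU-rich stretches of the spacers were low in both strains. In ITS1, positions 2796 to 2825 averaged 4.93, 5.85, and 6.06 RPM in WT and 23.2, 19.9, and 20.8 in mutant cells, and 29 of the 30 rose, where 84.4% of all ITS1 positions did. Its highest position in mutant cells, 2813, had 5.02 ± 0.45 RPM in WT and 74.2 ± 9.76 in mutant cells. Positions 2502 to 2525, which begin 2 nucleotides after the end of 18S, averaged 9.23 ± 1.09 RPM in WT and 18.4 ± 1.13 in mutant cells, with 16 of 24 higher and 1 lower. In ETS2, positions 6776 to 6798, past T1, averaged 0.98 ± 0.14 and 1.89 ± 0.34 RPM, with 7 of 23 higher and 1 lower, against 53.6% and 10.1% in all of ETS2. The longest stretch of the genes, positions 909 to 929 of 18S, averaged 107 ± 14.0 RPM in WT and 91.6 ± 3.35 in mutant cells, with 5 of 21 higher and 11 lower, against 33.8% and 35.3% in all of 18S.

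The AU-rich spacer positions were next divided by the purine content of the window. The 15 positions with 8 or more A or G in the window had 29.5, 23.9, and 31.3 RPM in WT and 74.4, 65.5, and 76.1 in mutant cells. Most of them are the consecutive positions 643 to 652 of ETS1, whose windows overlap. Positions 2830 to 2832 of ITS1 are also consecutive, so this group holds few separate sequences. The 67 AU-rich spacer positions with 8 or more C or U had 33.3, 43.2, and 41.5 RPM in WT and 27.2, 26.0, and 24.7 in mutant cells. Of these 67, 43 rose and 12 fell, where over all spacer positions 82.5% rose and 4.42% fell. The log2 ratio of the A/G-rich to the C/U-rich group was -0.48 ± 0.34 in WT and 1.47 ± 0.14 in mutant cells, a difference of 1.95 (exact p = 0.1). Without positions 6661 and 6662 the C/U-rich group had 16.7 ± 1.36 RPM in WT and 24.0 ± 1.19 in mutant cells, and the difference was 0.83. Within ETS1 alone, which held 11 and 15 positions of the groups, it was -0.36 (exact p = 0.3), with the opposite sign. ETS2 held 0 of the A/G-rich and 18 of the C/U-rich positions, so the groups also differ by region. With each group set against the positions of its own regions that are not AU-rich, the ratio was -0.90 ± 0.36 in WT and 0.90 ± 0.14 in mutant cells. The difference was then 1.80 (exact p = 0.1). These ratios still include positions 6661 and 6662. Without them, set against the same positions, the A/G-rich group was at -0.21 ± 0.31 in WT and -0.60 ± 0.11 in mutant cells. The C/U-rich group was at -0.57 ± 0.003 and -1.64 ± 0.08. The A/G-rich group was thus the higher in both strains, and the strain difference was much smaller than 1.80.

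Among spacer positions that were not AU-rich, the 134 A/G-rich ones had 37.6 ± 4.72 RPM in WT and 154 ± 2.36 in mutant cells, and the 66 C/U-rich ones 56.7 ± 6.06 and 47.3 ± 0.27. In every mutant library, A/G-rich positions thus had a lower mean where they were AU-rich than where they were not, a difference that was not tested. By single bases, the 44 AU-rich spacer positions with 6 or more A had 14.9 ± 1.69 RPM in WT and 41.5 ± 2.79 in mutant cells, with 34 higher and none lower. The 122 with 6 or more U had 25.1 ± 3.04 and 21.9 ± 1.42, with 75 of 120 tested higher and 12 lower. Beside the counts of both groups, 82.5% of all spacer positions rose and 4.42% fell. Without positions 6661 and 6662 the order of the strains turned, with 12.6 ± 0.88 RPM in WT and 20.8 ± 1.40 in mutant cells at the other 120 of this U-rich group.

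**Figure D5:**
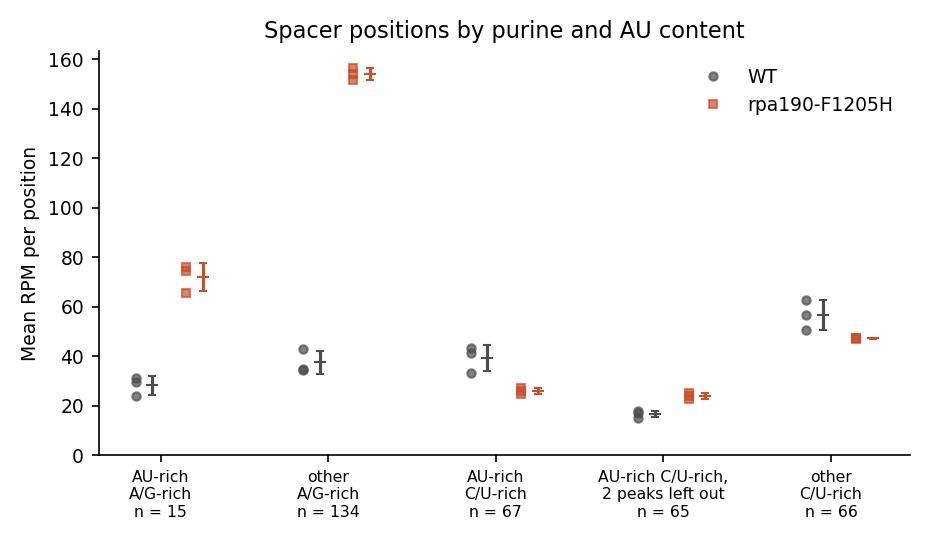
Mean RPM per spacer position in each library (points) with the strain mean and SD (bars), for positions with 8 or more A or G and with 8 or more C or U in the window, AU-rich or not. The 2 peaks left out are positions 6661 and 6662, without which AU-rich C/U-rich positions have 16.7 RPM in WT.

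Few of the most occupied spacer positions were AU-rich. Among the 38 positions with the highest median of a strain (the top 2.5% of spacer positions), 3 were AU-rich in WT, namely 6661, 6662, and 6739, and 0 in *rpa190-F1205H*, where an even spread would give 7.93. An even spread does not allow for the unequal levels of the spacers, which the ranking pools. The 60 AU-rich positions past T1 averaged 0.97 RPM in WT and 2.04 in mutant cells. The lowest values ranked were 160 and 426 RPM. Ranked in single libraries, the count was 3, 3, and 2 in WT and 0 in each mutant library. In the top 5% (76 positions) it was 5 in WT and 0 in mutant cells. AU-rich positions held 12.3, 12.2, and 12.9% of spacer reads in WT and 7.32, 6.73, and 6.70% in mutant cells. They are 20.9% of spacer positions, again pooled over spacers of unequal level.

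In the genes, the AU-rich positions with the largest changes went both ways. In 18S, position 1674 (465896) had 49.7, 45.9, and 35.6 RPM in WT and 179, 169, and 180 in mutant cells (log2 fold change 2.00, adjusted p = 2.01e-06, limma). Position 1181 (466389) had 303, 297, and 283 RPM in WT and 132, 131, and 137 in mutant cells (log2 fold change -1.13). A few nucleotides upstream, position 1176, the highest AU-rich position of 18S in mutant cells, had 440 to 476 RPM in WT and 449 to 479 in mutant cells, and the strains overlapped (log2 fold change 0.020, adjusted p = 0.843, limma). The highest in WT was position 1452, with 507 to 630 RPM in WT and 328 to 354 in mutant cells (-0.76).

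In 25S, position 3253, the second nucleotide of the gene, whose window lies mostly in ITS2, had 8.87, 14.3, and 13.9 RPM in WT and 105, 97.7, and 113 in mutant cells (log2 fold change 3.02, adjusted p = 8.83e-07, limma). Position 5398 had 19.4 to 22.7 RPM in WT and 80.5 to 96.0 in mutant cells (2.04). Position 5976, whose window holds a pair of U runs, had 174, 152, and 181 RPM in WT and 72.0, 66.3, and 70.3 in mutant cells (-1.27), and position 5978 fell as well (-1.25). The highest of 25S were position 6555 in WT, with 442 to 546 RPM against 268 to 303 in mutant cells (-0.77), and position 3964 in mutant cells, with 327 to 338 RPM against 203 to 254 in WT (0.56).

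In 5.8S, 10 of the 13 AU-rich positions were the first 10 of the gene. They had 3.76, 4.14, and 4.92 RPM in WT and 40.1, 35.5, and 38.6 in mutant cells, and all 10 rose. Over all 5.8S positions 20.5% rose and 55.8% fell, and in ITS1, directly upstream, 84.4% rose. The remaining 3 AU-rich positions had 97.1 ± 5.13 and 81.7 ± 6.10 RPM, with none higher and 1 lower. The highest of them, position 2966, had 162 to 194 RPM in WT and 141 to 168 in mutant cells, and its strains overlapped (log2 fold change -0.22, adjusted p = 0.115, limma). With 10 nucleotides at each region end left out, the 5.8S ratio of AU-rich to other was -1.04 in WT and -0.83 in mutant cells, a difference of 0.20 in place of 1.43.

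At the spacer ends, too, levels differed from the rest of the spacers. Within 10 nucleotides of a spacer end, AU-rich positions had 11.6 ± 0.61 RPM in WT and 17.4 ± 0.78 in mutant cells, with 21 of 46 tested higher and 4 lower. The 31 other positions there had 106 ± 12.6 and 59.6 ± 0.82 RPM, with 6 of 24 tested higher and 8 lower. Elsewhere in the spacers, the 265 AU-rich positions had 17.4 ± 1.43 and 28.7 ± 1.39 RPM, and the 1159 others 28.4 ± 2.28 and 96.5 ± 1.07. Of these AU-rich positions, 196 rose (74.0%) and 14 fell, and of the others 1009 (87.1%) and 40.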

How the data were processed

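NET-Seq 3′ ends were measured in 3 WT and 3 *rpa190-F1205H* libraries. The authors removed duplicates by molecular identifier, trimmed adaptors with cutadapt, aligned to build R64 with STAR 2.7.1a, and counted 3′ ends through bedtools coverage. The division of reads among the repeated rDNA copies is not given in the sources used here. The deposited values are RPM per position, scaled by the authors to 1000000 reads at positions 1 to 6739. The deposited strain means, ratios, and p-values were not used.

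Dividing by the value of 1 read gave whole numbers, to within 0.02, for 99.98% of 41148 values. The reads recovered totaled 2028349 to 3087916 per WT library and 3155425 to 3687549 per mutant library. The deposited RPM were tested as log2(RPM + 1) with limma 3.58.1 in R 4.3.3, with a single term for strain, over the 6843 positions above 0 in any library, and p-values were adjusted by Benjamini-Hochberg with a threshold of 0.05. This left out 3 AU-rich positions. The first 9 positions have no full window and were counted as other. Levels and ratios were compared by two-sided exact permutation tests. edgeR 4.0.16 quasi-likelihood tests, DESeq2 1.42.0, other pseudocounts, scalings, windows, and subsets were alternatives, including the replicate number as a block. The tests were tested on simulated reads.

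The positions named are, in each region, the highest of each strain, and, among positions called, with a mean of at least 50 RPM and strains apart, the 5 largest rises and falls of the spacers and the 3 of the genes, with the longest stretches. Position 2813 is the highest of its stretch. For named positions with nearly the same window, a single sequence was printed, and the highest positions of the genes were not printed. The first 10 positions of 5.8S and the ETS2 segments were picked once their values had been seen. The members and lists were chosen with earlier results of these data known. Libraries came from separate cultures.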

Additional observations from a re-analysis of the deposited data

How the results depend on the processing

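Counts of calls at AU-rich positions (217 higher and 18 lower in the spacers, 112 higher and 212 lower in the genes) stayed within 1.5 times under both other pseudocounts, the unequal-variance test, edgeR, DESeq2, scaling to the same median position, the region ends left out, and each library left out. Scaling to the same spacer total gave 80, 114, 13, and 419. With a minimum mean of 10 RPM fewer positions were tested, and 142 of 170 AU-rich spacer positions rose. This was 83.5%, against 90.8% of the other spacer positions. In the main fit the shares were 69.8% and 85.8%, so the gap between the classes was narrower without the low positions. Other definitions change how many positions are counted: at least 7 of 10 A or U gave 462, 31, 276, and 578, at least 9 of 10 gave 70, 6, 28, and 45, and at least 7 of the last 8 gave 138, 10, 74, and 128. Deviations of same-numbered libraries from their strain means correlated at 0.127, 0.027, and 0.201, which does not show that the numbers pair the cultures. With the replicate number as a block, 225 and 19 spacer and 120 and 222 gene positions were called.

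The ratio of AU-rich to other spacer positions (-0.45 in WT, -1.45 in *rpa190-F1205H*) stayed below 0 in both strains under every alternative run. It was -0.96 and -1.15 with medians over positions, -0.55 and -1.10 with the mean of log2(RPM + 1), -0.65 and -1.09 at 7 of 10, -0.91 and -1.51 at 9 of 10, and -0.93 and -1.26 at 7 of the last 8. In WT it was -0.40 without the highest 1% of positions and -0.33 without region ends. Chosen after seeing the data, leaving out positions 6661 and 6662 gave -0.96 in WT, leaving out ETS2 gave -1.18, and setting each position against others within 25 nucleotides gave -0.081 in WT and -1.29 in the mutant, with the cause not tested. In the genes (-0.51 and -0.62) it was -0.39 and -0.55 without the highest 1%, -0.26 and -0.45 at 7 of 10, and -0.72 and -0.78 at 9 of 10. It was -0.44 in WT at 7 of the last 8 and -0.43 without region ends, and in the mutant -0.49 with medians and -0.55 with log values. The strain difference changed sign in ETS1 at 7 of 10 (0.16), in ITS2 with medians (-0.27), log values (-0.068), and 7 of 10 (-0.27), in ETS2 with medians (0.091), and for A/G-rich against C/U-rich positions in ETS1 alone (-0.36). The causes were not tested. Leaving out position 3075, T1 with position 6738, or the same pair of ETS2 positions from the comparison of A/G-rich with C/U-rich positions, was also chosen after seeing the data. So was setting each of these 2 groups against its own regions.

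Of the top 2.5% of WT spacer positions, 3 were AU-rich. The count was 5 in the top 5% and 5 when ranked within each spacer, and 6 at 7 of 10. In *rpa190-F1205H* it was 0, and 2 at 7 of 10. At the positions named, the sign turned under the same spacer total at 610 (-1.22), 3104 (-0.018), 3964 (-0.999), and 1176 (-1.54). Position 575 was not called under the same spacer total (0.090, adjusted p = 0.491), and position 610 not under the same median position (0.16, adjusted p = 0.277). At 1176, which was not called, it also turned with edgeR (-0.039), DESeq2 (-0.032), the same median position (-0.16), and single libraries left out (-0.0076 to 0.053). Position 2966 was called lower by edgeR (-0.28, adjusted p = 0.0107), DESeq2 (-0.27), and with the block (-0.22), and without WT replicate 3 (-0.31). Depth limits single spacer positions in WT most.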
